A study of Mus musculus with 10 samples.

Results

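Along its whole length the mouse sweat gland has an outer and an inner cell layer, and transcript levels of the outer layer were compared here with those of the inner layer, with the secretory coil and the straight duct pooled. The outer layer was measured on 4 arrays, 2 of myoepithelial cells of the gland coil and 2 of basal cells of the duct. The inner layer was measured on 4 arrays, 2 of luminal cells of the coil and 2 of suprabasal cells of the duct. These are 8 of the 10 arrays of the series, and the other 2 hold palmoplantar epidermis. Members were the genes for which all 4 outer arrays lay above, or all 4 lay below, all 4 inner arrays, and these were 1376 of 9320 genes tested.

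Every population was isolated by FACS, the sorting of single cells by their fluorescence, from paw pads. The mice were female, wild-type and of the CD1 stock, which is outbred. Total RNA was hybridised to Affymetrix mouse expression arrays as biotin-labelled cRNA. The 2 arrays of a population are labelled as biological replicates, while the sort markers, the age of the mice and the number of mice behind an array are not given in the sources used here. No treatment is named.

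As background, a sweat gland is a bilayered epithelial tube. Its outer cells rest on a basement membrane, which they grip with hemidesmosomes, and in the coil they are myoepithelial cells that contract around the lumen. Its inner cells face the lumen, are sealed to each other by tight junctions, and move salt and water, the coil by secreting and the duct by taking sodium back through the epithelial sodium channel.

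The arrays were read as signal intensity on a linear scale, with no unit, and differences are given on the scale of log2(signal + 12), positive where the outer layer (myoepithelial or duct basal) is higher. Adding 12 understates the differences of dim genes. The median signal of an array was between 92.7 and 120.1 on the 8 sweat gland arrays. Across genes, which are not independent replicates, the 2 arrays of a population correlated with r between 0.963 and 0.974 in myoepithelial, duct basal and luminal cells and with r = 0.907 in suprabasal cells. The 2 suprabasal arrays differed by more than 2-fold for 1873 genes, against 605 to 830 genes in the other 3 sweat gland populations. P-values come from limma, carry the Benjamini-Hochberg adjustment over all 9320 genes, and are called below 0.05. They rest on the spread between arrays of a population, of which there were 2 each, and this number limits the precision. For each gene the same estimate of this spread served all populations, epidermis included. P-values for the duct therefore do not reflect the spread of the duct arrays alone, and the suprabasal arrays differed more than those of the other populations. In sorted bulk samples, fewer cells of a type and less RNA per cell cannot be told apart.

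Outer and inner layers differed broadly. The pooled contrast called 2970 of 9320 genes (31.9%), of which 1535 (16.5%) were higher in the outer layer and 1435 (15.4%) higher in the inner layer. The 4 outer arrays lay above all inner arrays for 683 genes (7.33%) and below them for 693 genes (7.44%), and 1209 of these 1376 genes were also called. The remaining 167 separated genes were not called, while 1761 called genes had overlapping layers. Just inside the separation lay Bloc1s6, with a gap of 0.0020 on the log2 scale, and just outside it lay Coq6, with a gap of 0.0000. With 1 array left out fewer arrays have to be ordered, and 2487 genes were separated without suprabasal array 2, against 1498 to 1895 without any 1 of the other 7 arrays. A model without a separate layer difference for gland and duct, which puts that difference into the residual, called 1306 genes, and 1305 of them were also called in the main fit.

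Of the separated genes, 479 were called, differed by at least 2-fold and had a mean signal in the brighter layer above the median of the genes tested. They are termed layer genes below, 194 of them outer and 285 inner. Their median difference was 1.85 for outer and -1.80 for inner layer genes, against 0.04 over all genes tested, which follows from how they were chosen.

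The labelled layers were first set against markers of basal and of luminal epithelium. Trp63, the transcription factor p63 of basal epithelial cells, had 3807 and 4738 on the myoepithelial, 3631 and 3004 on the duct basal, 38.1 and 55 on the luminal and 505 and 474 on the suprabasal arrays. Col17a1, the collagen XVII chain of the hemidesmosome, had 6711 and 8839 on the myoepithelial, 10180 and 15313 on the duct basal, 26.3 and 44.4 on the luminal and 306 and 1994 on the suprabasal arrays. For both genes the lowest outer array lay above the highest inner array. Krt5 and Itga6 were separated in the same way, with log2 differences of 4.33 and 1.28. Krt14, a keratin of basal keratinocytes, was called (log2 difference 1.76, adjusted p = 0.00363) but overlapped, because its signal was 20222 and 24644 on the suprabasal arrays against 8896 and 9394 on the myoepithelial arrays.

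On the inner side, Scnn1g, the gamma subunit of the epithelial sodium channel, had 108 and 65.7 on the myoepithelial, 121 and 89.7 on the duct basal, 495 and 746 on the luminal and 902 and 680 on the suprabasal arrays. Cldn7, a claudin of tight junctions, had 578 and 65.9 on the myoepithelial, 211 and 196 on the duct basal, 4537 and 3856 on the luminal and 1280 and 774 on the suprabasal arrays. Both genes were separated, as was Krt18, while Krt8 and Krt19 were called with overlap. Krt8 had 7192 and 6302 on the myoepithelial arrays against 10825 and 4438 on the suprabasal arrays. None of these markers was at 0 on any array.

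**Figure D1:**
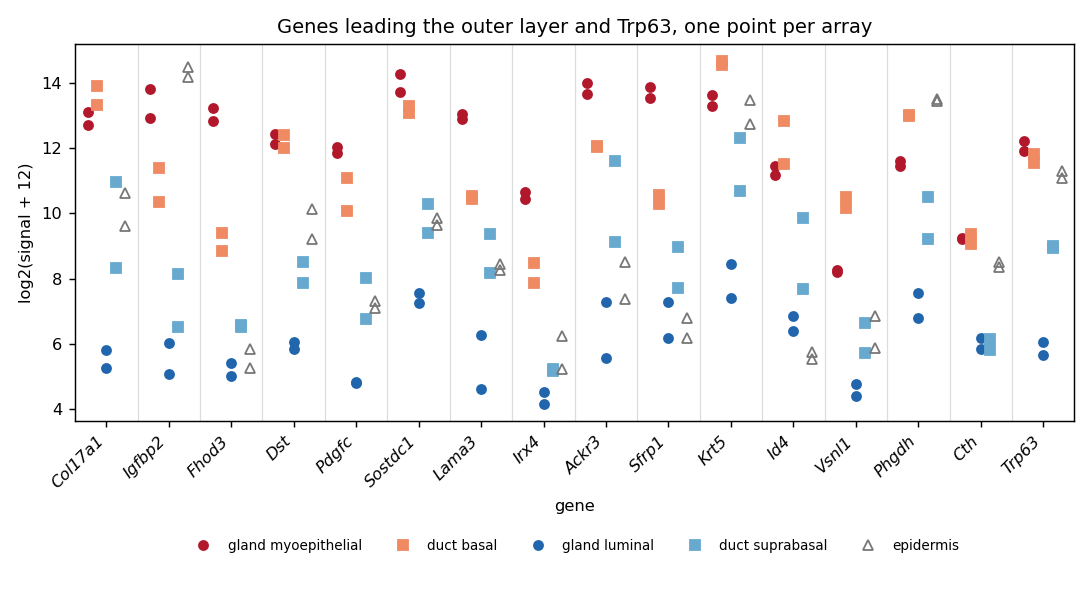
Log2(signal + 12) of the genes with the largest outer layer differences, pooled or in gland and duct alike, and of Trp63 (vertical axis), with 1 point per array and 2 arrays per population, coloured by population. For each gene shown the 4 outer arrays (red and orange) lie above the 4 inner arrays (blue), and the epidermis arrays (open triangles) lie high for Igfbp2 and Phgdh and low for Fhod3 and Id4.

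Genes of attachment to the basement membrane were among those with the largest outer differences. Col17a1 differed by 5.67 ± 0.50 (log2, SE, adjusted p = 0.000132), 51.0-fold on this scale, and Dst, whose epithelial product BPAG1 ties keratin filaments to the hemidesmosome, by 5.18 ± 0.23 (log2, SE, adjusted p = 4.11e-06). Dst had 4448 and 5536 on the myoepithelial, 5456 and 4128 on the duct basal, 45.4 and 54.4 on the luminal and 221 and 351 on the suprabasal arrays, so myoepithelial and duct basal cells were alike in level and both far above the inner cells. Lama3 encodes the alpha chain of laminin 332, the laminin of hemidesmosomes, and had 7609 and 8441 on the myoepithelial, 1374 and 1455 on the duct basal, 12.6 and 65.3 on the luminal and 279 and 652 on the suprabasal arrays. Its 4 outer arrays were separated from the inner ones, but most of the difference came from the gland, with 7.52 ± 0.51 (SE) in the gland against 1.70 ± 0.51 in the duct.

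Of the 15 tested genes listed for basal keratinocytes and hemidesmosomes, 13 were higher in the outer layer and 0 in the inner, 9 of them separated. The list's median difference was 2.35, against 0.04 for all genes. Lamb3, the beta chain of laminin 332, differed by 2.64 ± 0.16 (log2, SE, adjusted p = 2.13e-05), and Cdh3, P-cadherin, by 3.89 ± 0.42 (log2, SE, adjusted p = 0.000373). The members that were not called were Itgb4 (log2 difference 0.05) and Cd151 (0.14). Itgb4 encodes an integrin chain of the hemidesmosome and showed -1.30 in the gland and 1.40 in the duct.

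Other matrix genes were outer in the gland more than in the duct. Of 16 tested basement membrane and matrix genes, 10 were higher in the outer layer and 1, Nid1, in the inner, with a median of 3.21 in the gland and -0.78 in the duct. The outer count was 6 without luminal array 1, 6 without myoepithelial array 2 and 5 in the model without separate layer differences. On suprabasal array 2 the median gene of this list was 1.67 (log2) above array 1, where fibroblast markers were 2.35 and endothelial markers 2.28 above it, and the part of other cells in the duct median was not tested. Col7a1, which forms the anchoring fibrils below the basement membrane, was separated with 1035 and 814 on the myoepithelial, 456 and 762 on the duct basal, 28.6 and 73.9 on the luminal and 87.9 and 111 on the suprabasal arrays. Agrn, the heparan sulfate proteoglycan agrin, was higher by 1.87 in the gland and 1.60 in the duct. Lama5 (log2 difference 1.09, adjusted p = 0.0128) was separated as well, and without luminal array 1 its adjusted p was 0.053. By contrast Col4a1, a collagen IV chain, had 10554 and 12601 on the myoepithelial arrays, 290 and 228 on the duct basal arrays, 166 and 414 on the luminal arrays and 938 and 4781 on the suprabasal arrays. Its pooled difference of 1.20 was not called (adjusted p = 0.0767).

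Transcription factors of basal and appendage stem cells included outer genes as well. Of 19 tested, 9 were higher in the outer layer, 6 of them separated, and 1, Sox9, in the inner. Trp63 differed by 4.46 ± 0.15 (log2, SE, adjusted p = 2.04e-06), the smallest adjusted p among the genes named here. Irx4, a homeobox factor, had 1378 and 1614 on the myoepithelial, 222 and 341 on the duct basal, 11.2 and 5.9 on the luminal and 24.3 and 25.8 on the suprabasal arrays, and was the factor of this list with the largest difference (4.58). Snai2, the zinc finger factor SLUG, had 1954 and 1957 on the myoepithelial, 1384 and 543 on the duct basal, 37 and 34.4 on the luminal and 152 and 169 on the suprabasal arrays. Tbx1, a T-box factor, had 956 and 996 on the myoepithelial, 1202 and 1561 on the duct basal, 65.6 and 68.1 on the luminal and 288 and 281 on the suprabasal arrays, with epidermis arrays at 1298 and 1579, in the range of the duct basal arrays. Its difference was 2.93 ± 0.14 (log2, SE, adjusted p = 6.83e-06). Without suprabasal array 2 the list's inner count was 4. The Sox9 difference of -1.25 (adjusted p = 0.0274) was not separated and lost its call without duct basal array 1, without either luminal array or without myoepithelial array 2.

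Secreted factors and receptors of developmental signalling were found on both sides. Igfbp2, which binds insulin-like growth factors outside the cell, had 7701 and 14311 on the myoepithelial, 1286 and 2646 on the duct basal, 21.7 and 53.4 on the luminal and 78.8 and 268 on the suprabasal arrays. The difference was 5.67 ± 0.40 (log2, SE, adjusted p = 4.47e-05), and epidermis was higher still, at 18520 and 22877. Pdgfc, a platelet-derived growth factor whose receptors are on mesenchymal cells, had 3642 and 4157 on the myoepithelial, 2167 and 1070 on the duct basal, 16.4 and 15.6 on the luminal and 95.8 and 248 on the suprabasal arrays. Its difference was 5.16 ± 0.30 (log2, SE, adjusted p = 2.13e-05), larger in the gland than in the duct by 3.93. In the gland 11 of 23 tested growth factor and receptor genes were called outer and 6 inner, with a median of 1.34. In the duct 2 were outer and 5 inner, with a median of -0.50, and 14 differed between gland and duct. The pooled contrast called 7 higher in the outer layer and 6 in the inner, with a median of 0.24, beside 16.5% and 15.4% of all genes. The outer ones included Egfr (2.03), Pdgfa (1.74) and Fgfr3 (1.66), and the inner ones included the ligand gene Egf (-2.30) and Erbb3 (-1.86), a receptor of the same family as Egfr.

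Inhibitors of Wnt and Bmp signalling were among the genes with the largest outer differences. Sostdc1, a secreted antagonist of both pathways, had 13427 and 19852 on the myoepithelial, 9927 and 8550 on the duct basal, 142 and 178 on the luminal and 662 and 1232 on the suprabasal arrays, and differed by 4.96 ± 0.21 (log2, SE, adjusted p = 3.52e-06). Sfrp1, which binds Wnt proteins, had 11930 and 14910 on the myoepithelial, 1492 and 1241 on the duct basal, 60.1 and 145 on the luminal and 198 and 489 on the suprabasal arrays. Fst, follistatin, which binds activin and Bmp ligands, had 3858 and 2753 on the myoepithelial, 412 and 498 on the duct basal, 13.7 and 52.1 on the luminal and 42.9 and 87.9 on the suprabasal arrays. For all 3 the duct basal arrays lay between the myoepithelial and the inner arrays. Id4, an inhibitor of helix-loop-helix factors, was instead at least as high in the duct, with 2298 and 2782 on the myoepithelial, 2924 and 7210 on the duct basal, 72.8 and 104 on the luminal and 195 and 907 on the suprabasal arrays, and its gland and duct differences of 4.68 and 3.40 were not told apart (adjusted p = 0.355).

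Of 27 tested genes of the Wnt and Eda pathways, the outer layer was higher for 17, 9 of them separated, and the inner for 1, Tnfrsf19, with a median of 1.12. In the gland 16 were called outer and 2 inner, in the duct 5 and 0, and 12 differed between gland and duct. Under the filter at the 60th percentile, which tests fewer genes, the outer count was 11, and it was 8 in the model without separate layer differences. Ligands were represented by Wnt10a, with 223 and 256 on the myoepithelial, 811 and 814 on the duct basal, 19.9 and 3.1 on the luminal and 92.6 and 222 on the suprabasal arrays, and by Wnt4, with a difference of 2.39 ± 0.21 (log2, SE, adjusted p = 0.000135). Among receptors, Lgr5, which binds R-spondins and marks stem cells in several epithelia, had 1234 and 997 on the myoepithelial, 214 and 249 on the duct basal, 18.2 and 35.5 on the luminal and 24.5 and 35.8 on the suprabasal arrays. Fzd2, a frizzled receptor, had 518 and 914 on the myoepithelial, 178 and 197 on the duct basal, 18.4 and 27.2 on the luminal and 96.7 and 155 on the suprabasal arrays, with a called difference in the gland (4.34) and none in the duct (0.57, adjusted p = 0.327). Edar, the receptor of ectodysplasin, whose loss removes sweat glands, was separated with 108 and 127 on the myoepithelial, 152 and 75.4 on the duct basal, 8.3 and 30.1 on the luminal and 43 and 6.9 on the suprabasal arrays, at low signal. The Wnt target Axin2 (0.81, adjusted p = 0.12) was not called.

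Of 24 tested Bmp, Tgfb and Id genes, 7 were higher in the outer layer and 5 in the inner, with a median of 0.37. Of all genes tested, 16.5% were higher in the outer layer and 15.4% in the inner. Tgfb3 was outer (1.89) whereas Tgfb2 was inner (-1.96), and both were separated. Tgfb2 had 399 and 244 on the myoepithelial, 217 and 162 on the duct basal, 1725 and 1182 on the luminal and 900 and 492 on the suprabasal arrays. Of 16 Notch pathway genes, 5 were higher in the outer layer and 3 in the inner, beside the same shares of all genes, and 8 were not called. The outer ones held the ligand genes Jag2 (2.71), Jag1 (2.40) and Dll1 (2.20), while the inner ones were the receptor genes Notch3 (-1.55) and Notch4 (-2.28) and the target gene Hey2 (-2.10). Jag2 had 543 and 380 on the myoepithelial, 758 and 960 on the duct basal, 13.5 and 50.6 on the luminal and 132 and 369 on the suprabasal arrays. Notch4 is also known from endothelium, and it was highest on the suprabasal arrays, at 257 and 583, where endothelial markers were highest too (their values are given with the markers of other cells). The part of those cells in the Notch4 difference was not tested.

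Genes of the actin cytoskeleton were outer mainly through the gland. Fhod3, a formin that assembles actin in muscle, had 7205 and 9513 on the myoepithelial, 665 and 446 on the duct basal, 20.6 and 30.2 on the luminal and 82.6 and 79.8 on the suprabasal arrays. Flna, filamin A, had 12109 and 10766 on the myoepithelial, 1181 and 1402 on the duct basal, 86.5 and 125 on the luminal and 389 and 800 on the suprabasal arrays. Both were separated, and both had a larger layer difference in the gland, by 5.23 and 5.43. Of 15 focal adhesion and actin linkage genes, 8 were higher in the outer layer and 0 in the inner, but only Flna and Tln1 were separated, and the median was 1.60 in the gland and -0.50 in the duct. Among 10 YAP target and matricellular genes, 5 were outer and 1, Thbs1, inner. Ajuba, a LIM protein at cell junctions that restrains Hippo signalling, had 2445 and 2304 on the myoepithelial, 1880 and 1882 on the duct basal, 81.7 and 84.3 on the luminal and 310 and 425 on the suprabasal arrays. Ccn1, a matricellular YAP target, had 3468 and 4169 on the myoepithelial, 1067 and 5705 on the duct basal, 145 and 236 on the luminal and 290 and 1037 on the suprabasal arrays, and its highest inner array lay just below its lowest outer array.

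Some outer genes had a large difference in the duct as well as in the gland. Vsnl1, a neuronal calcium sensor protein, had 296 and 284 on the myoepithelial, 1444 and 1129 on the duct basal, 9 and 15.2 on the luminal and 41 and 87.4 on the suprabasal arrays, with layer differences of 3.66 in the gland and 4.15 in the duct. Phgdh, the first enzyme of serine synthesis, had 2798 and 3102 on the myoepithelial, 8236 and 8160 on the duct basal, 99.7 and 178 on the luminal and 586 and 1427 on the suprabasal arrays, with layer differences of 4.34 in the gland and 3.15 in the duct. Cth, the cystathionine gamma-lyase of cysteine synthesis, had 579 and 600 on the myoepithelial, 647 and 522 on the duct basal, 61 and 45.9 on the luminal and 59 and 44.4 on the suprabasal arrays, and its layer difference was 3.21 in the gland and 3.23 in the duct. Ackr3, a scavenger receptor of the chemokine Cxcl12, was different, with 12934 and 16494 on the myoepithelial, 4139 and 4293 on the duct basal, 35 and 145 on the luminal and 550 and 3116 on the suprabasal arrays. Its difference was called in the gland (7.41) and not in the duct (1.67, adjusted p = 0.173). Its ligand gene Cxcl12 was highest on the suprabasal arrays, at 1300 and 5680, against 48.2 to 80.4 on the 6 other sweat gland arrays.

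**Figure D2:**
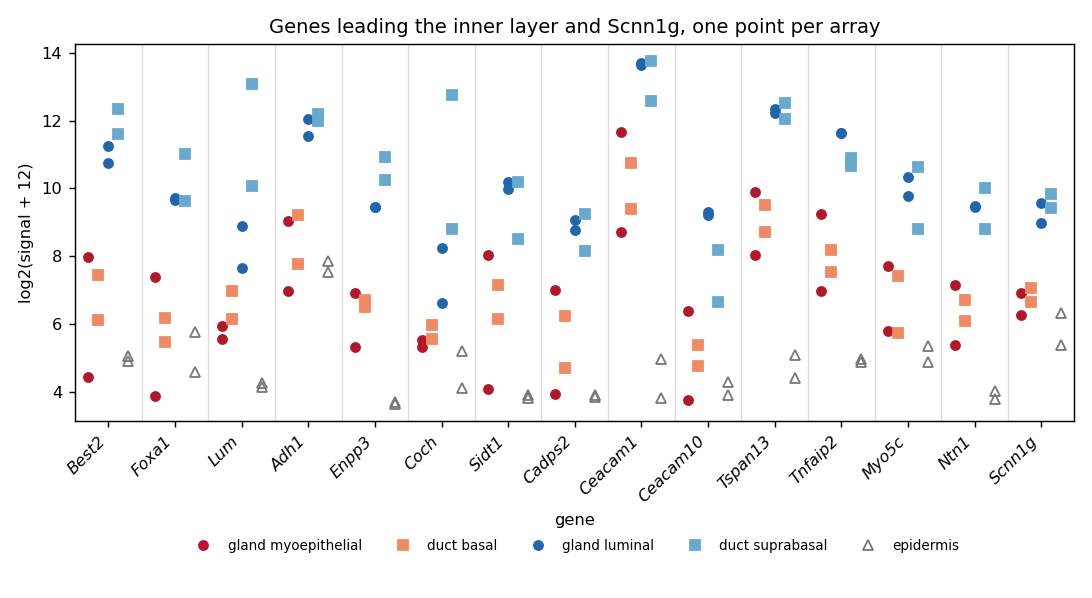
Log2(signal + 12) of the genes with the largest inner layer differences, pooled or in gland and duct alike, and of Scnn1g (vertical axis), with 1 point per array and 2 arrays per population, coloured by population. For each gene shown the 4 inner arrays (blue) lie above the 4 outer arrays (red and orange), myoepithelial array 1 lies above array 2 for each but Lum, and Lum and Coch are highest on suprabasal array 2.

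Genes of ion and fluid transport were among those with the largest inner differences. Best2, a calcium-activated anion channel, had 240 and 9.9 on the myoepithelial, 162 and 57.5 on the duct basal, 1726 and 2435 on the luminal and 5147 and 3076 on the suprabasal arrays. Its difference was -4.99 ± 0.65 (log2, SE, adjusted p = 0.000833), and it was alike in the gland (-4.79) and the duct (-5.18). Aqp5, the water channel of secretory glands, had 3693 and 786 on the myoepithelial, 1563 and 1374 on the duct basal, 16771 and 24287 on the luminal and 7265 and 4071 on the suprabasal arrays. Atp1b1, the beta subunit of the sodium pump, had 17181 and 2297 on the myoepithelial, 9215 and 5051 on the duct basal, 28079 and 47608 on the luminal and 35401 and 21897 on the suprabasal arrays, so myoepithelial array 1 came close to the inner arrays. Of 15 tested fluid secretion genes, 9 were higher in the inner layer, 3 of them separated, and 0 in the outer, with a median of -1.31. In the gland alone 9 were called inner, and in the duct alone 2, while 0 of the 15 differed between gland and duct. Called without separation were among others Kcnn4 (-3.04), a calcium-activated potassium channel, and Ano1 (-2.14), a calcium-activated chloride channel.

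Every one of the 14 tested genes of ductal ion absorption and acid transport was higher in the inner layer, with a median of -2.19 against 0.04 for all genes, and 6 of them were separated. In the gland alone 14 were called, and in the duct alone 3. The medians were -2.73 and -1.61, and 0 of the 14 differed between gland and duct. Of all genes tested, 14.5% were called higher in luminal cells and 8.39% higher in suprabasal cells. Scnn1g differed by -2.73 ± 0.28 (log2, SE, adjusted p = 0.000275) and Scnn1b, the beta subunit, by -2.31 ± 0.22 (log2, SE, adjusted p = 0.000207), each with nearly equal differences in gland and duct. Scnn1b had 108 and 81.3 on the myoepithelial, 68.7 and 74.7 on the duct basal, 419 and 479 on the luminal and 538 and 391 on the suprabasal arrays. The proton pump subunit genes Atp6v1b1 and Atp6v0a4, found in acid-secreting cells, differed by -3.13 and -3.16. Atp6v1b1 had 1595 and 227 on the myoepithelial, 691 and 614 on the duct basal, 10260 and 12450 on the luminal and 4078 and 1867 on the suprabasal arrays, with the second array of the suprabasal cells only slightly above the first of the myoepithelial cells.

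Tight junction genes were mostly inner in the pooled contrast, with 14 of 19 higher in the inner layer, 11 of them separated. In the gland 13 were called inner, and in the duct 4, while 3 of the 19 differed between gland and duct. In the pooled contrast 2, Pard3 and Prkci, were higher in the outer layer (0 as means over probe sets and 1 without duct basal array 1, luminal array 2 or either myoepithelial array). Cldn3 had 801 and 110 on the myoepithelial, 337 and 252 on the duct basal, 4801 and 5023 on the luminal and 2739 and 1099 on the suprabasal arrays. Cldn4 had 66.6 and 11.6 on the myoepithelial, 93.9 and 125 on the duct basal, 231 and 301 on the luminal and 598 and 589 on the suprabasal arrays. Claudin genes Cldn1 (-2.37), Cldn7 (-3.26) and Cldn8 (-2.36) and the occludin gene Ocln (-2.23) were separated in the same direction. Pard3, a polarity protein, was separated in the outer direction (1.15), but another probe set of it had the opposite sign, and its mean over probe sets was not called (adjusted p = 0.252). Desmosome genes, in comparison, were divided, with 4 of 11 higher in the outer layer and 1, Pkp2, in the inner. Pkp3 was separated in the outer direction (1.31), but was not called as the mean over its probe sets (adjusted p = 0.227).

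In the gland alone 10 of 13 simple epithelial genes were called inner, and in the duct alone 3, while 2 differed between gland and duct. In the pooled contrast 10 were higher in the inner layer, 6 of them separated, and 1, Anxa4, in the outer (log2 difference 0.40, adjusted p = 0.0484). The outer count was 0 when any 1 array other than suprabasal array 2 was left out. Krt18 had 3744 and 444 on the myoepithelial, 2195 and 1027 on the duct basal, 15132 and 17022 on the luminal and 9821 and 4751 on the suprabasal arrays. Krt7, another simple keratin, had 180 and 82.4 on the myoepithelial, 95.5 and 266 on the duct basal, 450 and 684 on the luminal and 1088 and 518 on the suprabasal arrays. Epcam, a cell adhesion protein of simple epithelia, had 2571 and 528 on the myoepithelial, 2511 and 3378 on the duct basal, 10452 and 12605 on the luminal and 7802 and 3910 on the suprabasal arrays, and one outer array, the second of the myoepithelial cells, was far below the others. St14, the protease matriptase, had 478 and 73.6 on the myoepithelial, 796 and 788 on the duct basal, 2883 and 2778 on the luminal and 1533 and 978 on the suprabasal arrays. Krt7 differed alike in the gland (-2.07) and the duct (-2.14), whereas Epcam and St14 were called in the gland and not in the duct (adjusted p = 0.339 and 0.537).

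Among 17 transcription factors listed for luminal cells, 11 were higher in the inner layer, 4 of them separated, and 2, Grhl2 and Tfap2c, in the outer (4 without suprabasal array 1). In the gland alone 11 were called inner, in the duct alone 3, and in the model without separate layer differences 6. Of the 17, 2 differed between gland and duct. Foxa1, a forkhead factor of glandular epithelia, had 156 and 2.8 on the myoepithelial, 60.3 and 32.6 on the duct basal, 794 and 830 on the luminal and 2038 and 781 on the suprabasal arrays. Its difference was -4.27 ± 0.68 (log2, SE, adjusted p = 0.00197), and the first suprabasal array was the highest of the inner ones. Grhl1, a grainyhead factor, had 206 and 101 on the myoepithelial, 146 and 270 on the duct basal, 742 and 721 on the luminal and 1532 and 598 on the suprabasal arrays, and its relative Grhl2 was outer, with 1982 and 2733 on the myoepithelial, 2087 and 1134 on the duct basal, 1102 and 838 on the luminal and 1042 and 692 on the suprabasal arrays. Another probe set of Grhl2 had the opposite sign, and as the mean over probe sets its difference of 0.45 was not called (adjusted p = 0.114). Ehf (-3.17), Foxi1 (-2.94) and Elf5 (-2.66) were called without separation.

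Enzymes, surface proteins and secreted proteins made up the rest of the leading inner genes. Adh1, an alcohol dehydrogenase that also oxidises retinol, had 518 and 115 on the myoepithelial, 580 and 205 on the duct basal, 2991 and 4233 on the luminal and 4645 and 4064 on the suprabasal arrays. Enpp3, an ectonucleotidase, had 109 and 28 on the myoepithelial, 93.2 and 79 on the duct basal, 685 and 688 on the luminal and 1208 and 1954 on the suprabasal arrays, the 2 suprabasal arrays being the highest. Ceacam1, an adhesion protein of apical membranes, had 3227 and 406 on the myoepithelial, 1702 and 666 on the duct basal, 13305 and 12710 on the luminal and 13782 and 6117 on the suprabasal arrays. Tspan13, a tetraspanin, had 950 and 250 on the myoepithelial, 712 and 406 on the duct basal, 4753 and 5220 on the luminal and 4238 and 5798 on the suprabasal arrays, with the inner arrays within a narrow range and a difference of -3.24 ± 0.38 (log2, SE, adjusted p = 0.000517). Ntn1, netrin 1, a secreted guidance cue, had 130 and 30.1 on the myoepithelial, 92.8 and 56.7 on the duct basal, 703 and 685 on the luminal and 437 and 1019 on the suprabasal arrays. The vesicle release factor gene Cadps2 (-3.33), the motor protein gene Myo5c (-3.21), the putative RNA transporter gene Sidt1 (-3.37) and the genes Tnfaip2 (-3.23) and Ceacam10 (-3.26) were separated too.

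Of 11 host defence and secreted genes, 2 were higher in the outer layer (5 without suprabasal array 2) and 4 in the inner. Of all genes tested, 16.5% and 15.4% were. In the gland 6 were higher in myoepithelial and 3 in luminal cells, with a median of 2.17. In the duct 1 was higher in basal and 3 in suprabasal cells, with a median of -1.44. Wfdc2 and Wfdc18, which encode whey acidic proteins, were separated in the inner direction (-2.73 and -2.18). Defb1, a beta-defensin, was separated in the outer direction, with 190 and 201 on the myoepithelial, 329 and 218 on the duct basal, 12.4 and 5.7 on the luminal and 9 and 24 on the suprabasal arrays and a difference of 3.33 ± 0.25 (log2, SE, adjusted p = 5.51e-05), and was higher still in epidermis, at 1506 and 1350.

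Levels of inner genes on the outer arrays differed between the 2 myoepithelial arrays. For the 14 ductal ion genes the median of array 2 over array 1 was -1.79 (log2), and for the 15 fluid secretion genes it was -1.06, against -0.03 for all genes tested. In suprabasal cells the same median was -1.28 for the ductal ion genes and -1.17 for the 17 luminal transcription factors, against -0.02 for all genes. These genes were thus higher on myoepithelial array 1 than on array 2 and lower on suprabasal array 2 than on array 1. Without myoepithelial array 1 and suprabasal array 2, Best2 differed by -6.05, Foxa1 by -5.49, Cldn7 by -4.17 and Krt18 by -3.92, all larger than with them, and 2990 genes were separated. Larger differences of such genes follow from which arrays are left out, and fewer arrays have to be ordered. Nothing is therefore read from either. The part of a mixture of layers in these values was not tested.

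To show what lies before the starts of leading genes, the promoters of the layer genes were searched on both strands in the window from 250 bases before to 50 bases after the start, in RefSeq sequence of build GRCm38.p6. Of the layer genes, 149 outer and 234 inner ones had at least 1 promoter, 210 and 320 promoters in all, among 32851 promoters of 27025 genes. The AP-1 motif TGANTCA was in 8.10% of outer, 5.31% of inner and 7.81% of all promoters. The TEAD motif GGAATG, of the factors that bind YAP, was in 14.8%, 12.5% and 14.7%. The forkhead motif TGTTTAC was in 1.43%, 1.88% and 3.65%, the grainyhead motif AACCNGTT in 0.476%, 2.5% and 2.09%, and the ETS motif CCGGAAGT in 1.90%, 4.69% and 3.89%. A p53-family double site, of the kind p63 binds, was in 0 outer, 0 inner and 3 of all promoters. The shares of the layer genes lay on either side of those of all promoters and were not tested. None of these motifs contains the letters of another, and a match is a description of the sequence, not a site.

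The promoters shown are those of 2 named genes per direction. Among named genes with a promoter kept for display and a match within 250 bases before the start, these genes have the largest pooled differences. Fhod3 (5.19), Best2 (-4.99) and Lum (-3.77) had no promoter kept for display and could not be chosen. Sequences are given 5' to 3' on the strand of the gene, with the matches in capitals. Igfbp2 (chr1:72825137-72825386, plus strand) holds an AP-1 match from -39 to -33 relative to the start, and Pdgfc (chr3:81036166-81036415, plus strand) a TEAD match from -137 to -132. Foxa1 (chr12:57546112-57546361, minus strand) holds a forkhead match from -141 to -135, and Cadps2 (chr6:23839422-23839671, minus strand) a TEAD match from -88 to -83.
Igfbp2: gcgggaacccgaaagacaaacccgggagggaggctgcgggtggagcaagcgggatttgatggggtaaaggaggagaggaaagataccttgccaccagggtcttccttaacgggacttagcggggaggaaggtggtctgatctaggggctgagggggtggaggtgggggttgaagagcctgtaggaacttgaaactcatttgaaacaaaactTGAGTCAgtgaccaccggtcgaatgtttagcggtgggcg
Pdgfc: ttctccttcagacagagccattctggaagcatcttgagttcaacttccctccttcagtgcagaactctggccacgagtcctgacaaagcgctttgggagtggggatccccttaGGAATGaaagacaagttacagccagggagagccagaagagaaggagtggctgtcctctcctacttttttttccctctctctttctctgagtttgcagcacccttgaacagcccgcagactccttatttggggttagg
Foxa1: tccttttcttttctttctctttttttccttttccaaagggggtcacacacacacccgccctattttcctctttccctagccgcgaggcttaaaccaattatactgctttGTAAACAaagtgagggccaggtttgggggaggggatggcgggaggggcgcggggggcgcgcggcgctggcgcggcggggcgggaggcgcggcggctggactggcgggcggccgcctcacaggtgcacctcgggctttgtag
Cadps2: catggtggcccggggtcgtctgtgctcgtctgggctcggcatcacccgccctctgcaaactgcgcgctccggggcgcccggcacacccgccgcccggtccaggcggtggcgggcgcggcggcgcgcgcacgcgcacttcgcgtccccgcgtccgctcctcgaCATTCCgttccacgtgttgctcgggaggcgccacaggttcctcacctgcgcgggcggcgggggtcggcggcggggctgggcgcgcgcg
Igfbp2 and Pdgfc are outer genes and Foxa1 and Cadps2 inner genes, and the TEAD letters stand before a gene of either side.

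Gland and duct each have their own layer comparison, and the 2 share no arrays. In the gland 2896 genes were called, 1540 (16.5%) higher in myoepithelial and 1356 (14.5%) higher in luminal cells. In the duct 1525 were called, 743 (7.97%) higher in basal and 782 (8.39%) higher in suprabasal cells. The calls had the same direction in both compartments for 273 outer genes, which are 17.7% of those called in the gland and 36.7% of those called in the duct, and for 272 inner genes (20.1% and 34.8%). Opposite calls were made for 135 genes, 104 of them higher in myoepithelial and in suprabasal cells and 31 higher in luminal and in basal cells. Across all genes tested the gland and duct differences had r = 0.243 and rho = 0.237, as a description.

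The count of genes called alike in both compartments moved with single arrays. It was 545, fell to 186 and 275 when duct basal array 2 or 1 was left out, to 280 and 287 for luminal array 1 or 2 and to 350 for myoepithelial array 2, and was 888 without suprabasal array 2. Of the layer genes, 131 of 194 outer and 143 of 285 inner ones were called in both compartments, against 2.93% and 2.92% of all genes tested in the same directions. Separation of all 4 arrays gives both compartments the same direction, so nothing is read from these shares. The gland difference was the larger one for 160 outer and 217 inner layer genes. Of the 92 outer and 117 inner layer genes that differed by at least 4-fold, 44 and 54 differed at least 4-fold in gland and duct separately.

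The difference between the layer differences was itself tested, and 1489 genes (16.0%) passed, 935 with a higher value in the gland and 554 with a lower one. After quantile normalization these counts were 764 and 810. The total was 678 without myoepithelial array 2, 636 without duct basal array 2, and 782 and 700 without luminal array 1 or 2. It passed for 83 of 194 outer layer genes and 33 of 285 inner layer genes, shares of which the second lies below the 16.0% of all genes. Trp63 was among them, with 6.20 ± 0.22 (SE) in the gland and 2.73 ± 0.22 in the duct.

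**Figure D3:**
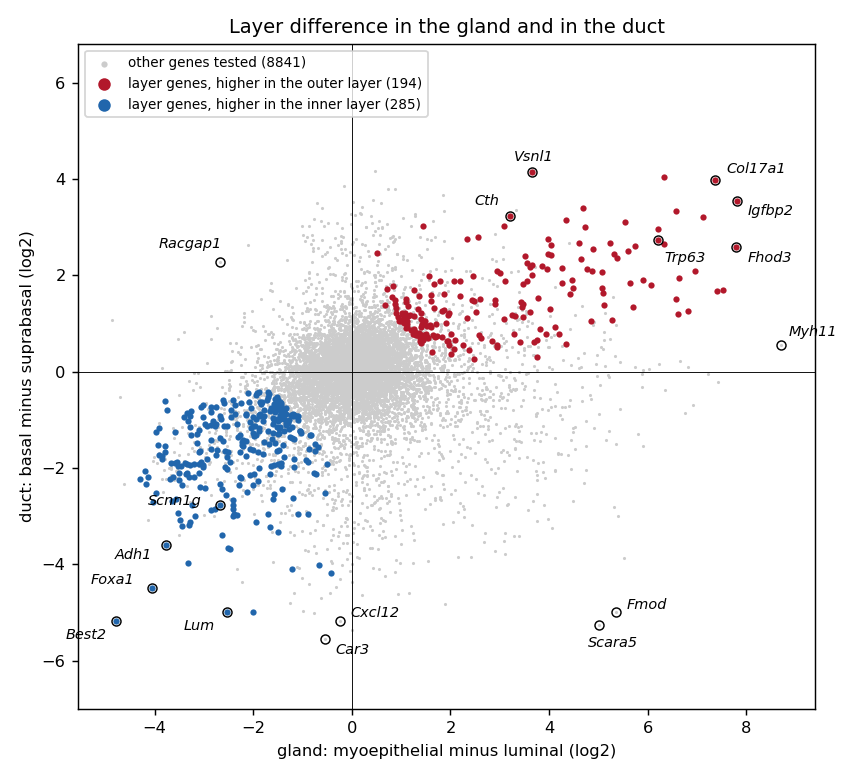
Layer difference of each of the 9320 genes tested in the gland (horizontal axis, myoepithelial minus luminal, log2) and in the duct (vertical axis, basal minus suprabasal, log2), with the 194 outer layer genes in red, the 285 inner ones in blue and named genes circled. Layer genes occupy the upper right and lower left by their choice, Cth and Vsnl1 have similar differences in both compartments, Myh11 is called in the gland and not in the duct, and Scara5 and Fmod lie in the lower right.

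Contractile genes differed between the layers of the gland. Of 12 tested smooth muscle contractile genes, 11 were called higher in the outer layer in the pooled contrast, but 2, Tpm2 and Smtn, were separated. The median was 5.78 in the gland and -0.01 in the duct, and all 12 differed between gland and duct. In the model without separate layer differences, 2 were called. Myh11, the smooth muscle myosin heavy chain, had 18782 and 19074 on the myoepithelial, 132 and 49.7 on the duct basal, 23.3 and 45.7 on the luminal and 75.2 and 35.3 on the suprabasal arrays. Mylk, myosin light chain kinase, had 26508 and 38320 on the myoepithelial, 331 and 165 on the duct basal, 126 and 238 on the luminal and 246 and 303 on the suprabasal arrays. Neither gene was called in the duct (0.55 and -0.21, adjusted p = 0.441 and 0.747), and their pooled differences of 4.63 and 3.61 are means over both compartments. Cnn1, calponin (3.59), Myl9, a myosin light chain (3.45), and Sln, sarcolipin, which restrains the calcium pump (3.43), had the same form. Tpm2, a tropomyosin, was separated in both, with 28420 and 46861 on the myoepithelial, 4234 and 4780 on the duct basal, 539 and 956 on the luminal and 976 and 1611 on the suprabasal arrays.

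On the inner side, 5 genes had the largest pooled difference among called genes with overlapping layers whose gland and duct differences also differed, and these were high on the suprabasal arrays alone. That limit favours genes of 1 compartment. Car3, a carbonic anhydrase of muscle and fat, had 1.1 and 3.1 on the myoepithelial, 8.2 and 2.3 on the duct basal, 6.7 and 10.6 on the luminal and 470 and 1326 on the suprabasal arrays. Penk, the precursor of enkephalin peptides, had 22.7 and 37.4 on the myoepithelial, 28.3 and 62.4 on the duct basal, 38.8 and 122 on the luminal and 841 and 3400 on the suprabasal arrays. Esm1, an endothelial proteoglycan, had 8.5 and 1.2 on the myoepithelial, 21.9 and 1.5 on the duct basal, 13.6 and 18.2 on the luminal and 588 and 796 on the suprabasal arrays. Itm2a (-2.68) and Cxcl12 (-2.71) behaved alike, and none of the 5 was called in the gland (adjusted p from 0.306 to 0.995). Lum and Coch, which were separated, were also highest there, with 35.2 and 49.5 on the myoepithelial, 59.2 and 115 on the duct basal, 189 and 468 on the luminal and 1071 and 8613 on the suprabasal arrays for Lum, a proteoglycan of connective tissue, and 431 and 6871 on the suprabasal arrays for Coch, a matrix protein. Without suprabasal array 2 the differences were -3.02 for Lum, -2.51 for Coch and -2.69 for Car3.

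Some genes ran in opposite directions in the 2 compartments, and their pooled difference, between -0.20 and 0.83, was not called. Tgm2 was called without suprabasal array 2 (1.35, adjusted p = 0.00726) and Racgap1 without that array and myoepithelial array 1 (-1.06, adjusted p = 0.0116). Scara5, a ferritin receptor, had 1303 and 1440 on the myoepithelial, 9.4 and 60.9 on the duct basal, 28.5 and 33.4 on the luminal and 608 and 3756 on the suprabasal arrays. Fmod, fibromodulin, a collagen-binding proteoglycan, had 10094 and 17068 on the myoepithelial, 49.1 and 97.3 on the duct basal, 125 and 747 on the luminal and 734 and 9166 on the suprabasal arrays. Tgm2, transglutaminase 2, and Fbln5, an elastic fibre protein, were likewise higher in myoepithelial than luminal and in suprabasal than basal cells, with layer differences of 5.52 and -3.87 for Tgm2 and 3.39 and -3.41 for Fbln5. In the other orientation, Racgap1, a protein of cell division, had 65.1 and 3.9 on the myoepithelial, 484 and 557 on the duct basal, 202 and 221 on the luminal and 154 and 60.9 on the suprabasal arrays. Shmt1, an enzyme of the folate cycle, had 76.1 and 41 on the myoepithelial, 664 and 659 on the duct basal, 214 and 196 on the luminal and 201 and 188 on the suprabasal arrays. Otud7a and Depdc7 shared that orientation, and without duct basal array 2 or luminal array 2 the gland against duct difference of Otud7a was no longer called (adjusted p = 0.0548 and 0.0502).

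Cell cycle genes were outer in the pooled contrast, through the duct basal cells. Of 22 tested, 20 were higher in the outer layer and 0 in the inner, yet Mcm4 alone was separated. In the duct 21 were higher in basal cells, while in the gland 3 were higher in myoepithelial and 1 in luminal cells, and the medians were 2.72 and 0.50. Birc5, a survival and mitosis protein, had 21.4 and 24.6 on the myoepithelial, 2124 and 2614 on the duct basal, 5 and 9.6 on the luminal and 113 and 225 on the suprabasal arrays. Mki67, the proliferation marker, had 40.8 and 31.6 on the myoepithelial, 2048 and 1615 on the duct basal, 5 and 31.3 on the luminal and 378 and 166 on the suprabasal arrays. For both genes the myoepithelial arrays, like the luminal ones, were thus far below the duct basal arrays. The duct basal arrays were above all the others, epidermis included (306 and 290 for Mki67). Mcm4, a subunit of the replicative helicase, had 926 and 862 on the myoepithelial, 2849 and 1197 on the duct basal, 454 and 301 on the luminal and 662 and 481 on the suprabasal arrays. In the model without separate layer differences 9 of the 22 were called.

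The lists for epidermal differentiation, respiratory chain, ER export, stress keratins and early response had at most 4 genes called per direction in the main fit. Of all genes tested, 16.5% were higher in the outer layer and 15.4% in the inner. The counts of the ER, stress keratin and early response lists were not tested against these shares, and nothing is read from them. Of 16 epidermal differentiation genes, 1 was higher in the outer layer (Krt1) and 1 in the inner (Sprr1a), with a median of 0.08. The outer count was 3 without duct basal array 1 and 2 without suprabasal array 1, and the inner count was 0 without myoepithelial array 2 or duct basal array 2. Of 26 respiratory chain and ATP synthase genes, 0 were higher in the outer layer and 1, Uqcrfs1, in the inner, with a median of -0.03. The inner count was 5 after quantile normalization, 4 without suprabasal array 2, 2 without duct basal array 2 and 0 without myoepithelial array 2 or luminal array 2, and the outer count was 1 without suprabasal array 2. Of 22 genes of ER translocation and vesicle export, 4 were higher in the outer layer, with a median of 0.27 (9 called without myoepithelial array 1 and suprabasal array 2). Of 7 wound and stress keratin genes, 2 were outer and 1 inner. The outer count was 1 when any 1 array other than duct basal array 1 or suprabasal array 2 was left out, and the inner count was 2 without luminal array 1 and 0 without luminal array 2. Krt17, a keratin of appendages and of injured skin, stood out with 2837 and 3122 on the myoepithelial, 3804 and 4798 on the duct basal, 28.4 and 64.3 on the luminal and 516 and 931 on the suprabasal arrays. In the model without separate layer differences the outer counts were 2 for focal adhesion, 2 for YAP target, 3 for Notch and 2 for ER genes, and the inner count of growth factor genes was 3. The inner count was 2 for matrix genes without suprabasal array 1, for Wnt and Eda and for desmosome genes without myoepithelial array 1, and for the early response genes of tissue dissociation without duct basal array 2, and the outer count of fluid secretion genes was 1 without suprabasal array 2. In single genes of this kind, leaving out 1 array could end a call. Nid1 lost its inner call without duct basal array 2 or luminal array 2, Tnfrsf19 without duct basal array 2, luminal array 1 or myoepithelial array 2, and Thbs1 without duct basal array 1, luminal array 1 or myoepithelial array 2. Of 16 early response genes of tissue dissociation, 3 were higher in the outer layer, among them Socs3, an inhibitor of cytokine signalling, with 11070 and 10380 on the myoepithelial, 3490 and 8078 on the duct basal, 1296 and 575 on the luminal and 654 and 2073 on the suprabasal arrays.

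**Figure D4:**
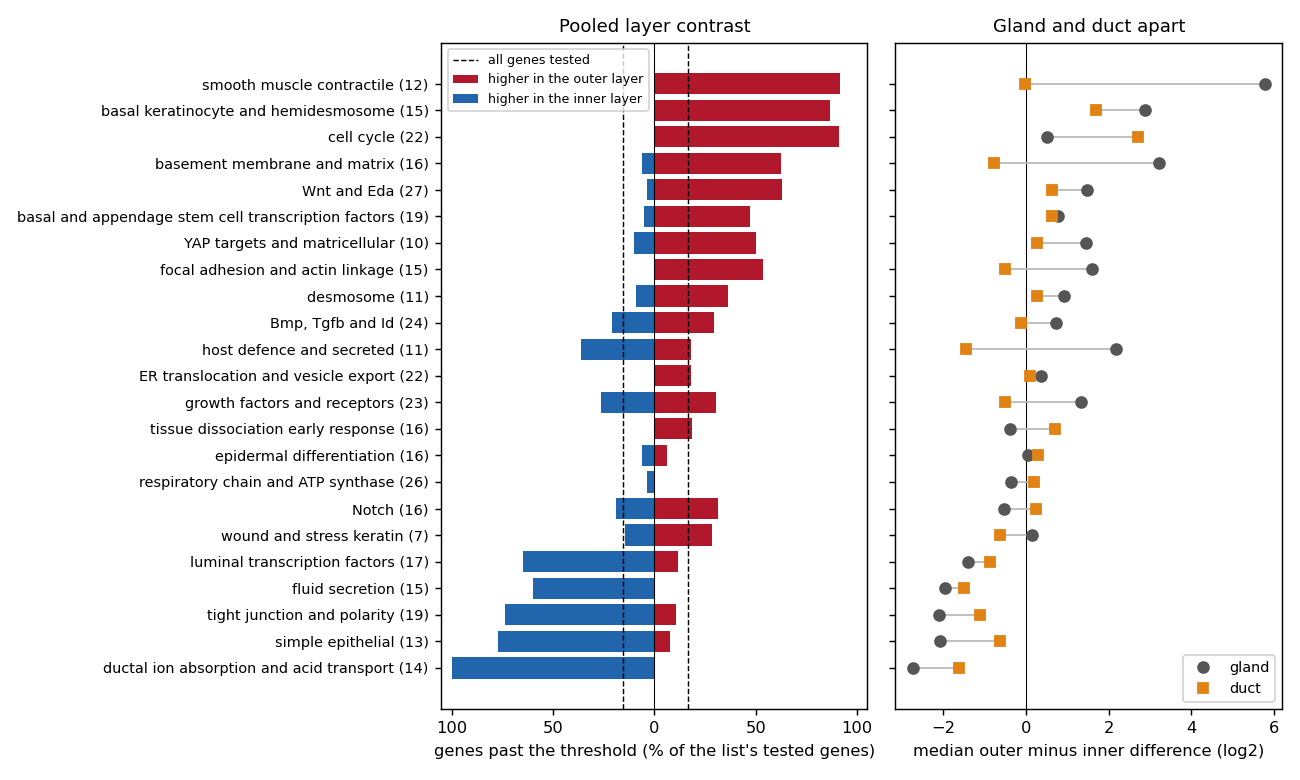
Left, percentage of each list's tested genes (number in brackets) called higher in the outer layer (red, to the right) or in the inner layer (blue, to the left) in the pooled contrast, with the percentages of all 9320 genes as dashed lines. Right, median layer difference of the same lists in the gland (circles) and in the duct (squares), on the log2 scale; contractile genes lie at 5.78 and -0.01, cell cycle genes at 0.50 and 2.72, and ductal ion genes at -2.73 and -1.61.

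Epidermis, which has a basal layer of its own, was set beside both layers as a description, since each comparison uses the outer or inner arrays by which the layer genes were chosen. Over all genes tested, 19.9% were higher in epidermis than in the inner layer and 31.2% lower, and 17.3% were higher in epidermis than in the outer layer and 31.3% lower. Of the 194 outer layer genes, 86 (44.3%) were higher in epidermis than in the inner layer, and 136 (70.1%) were higher in the outer layer than in epidermis. Of the 285 inner layer genes, 70 (24.6%) were higher in epidermis than in the outer layer, and 215 (75.4%) were higher in the inner layer than in epidermis. Trp63 had 2170 and 2534 in epidermis, between the outer and inner arrays. Phgdh, at 11538 and 11051, and Igfbp2 were above all sweat gland arrays, whereas Fhod3 (44.8 and 26.5), Id4 (41.9 and 34.5), Sfrp1 (60.7 and 99.2) and Postn (19.6 and 21.4) were within or below the range of the inner arrays. Among inner genes, Cldn1 (1162 and 1019) and Cldn4 (544 and 491) reached inner levels in epidermis, while Best2 (18.2 and 21.4), Enpp3 (0.6 and 1), Aqp5 (554 and 782) and Wfdc2 (33.1 and 15.5) did not. The epidermis arrays also entered the choice of probe sets, the filter and the fit, and epidermis holds both basal and differentiated cells.

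Markers of other cell types moved with some of these results. Of 10 endothelial markers, 9 were higher in the inner layer and 0 separated, and all 10 were higher in suprabasal than in duct basal cells. The inner count was 5 without myoepithelial array 2 or duct basal array 2, 4 without luminal array 2 and 0 in the model without separate layer differences. Their summed signal was 305 to 1122 on the outer arrays, 282 and 719 on the luminal arrays, and 6373 and 29732 on the suprabasal arrays. Of 8 fibroblast markers, 4 were higher in the inner layer and 2, Dcn and Postn, in the outer (1 without myoepithelial array 2 or luminal array 1). The sum was 21750 to 44345 on the outer arrays, 2303 and 6538 on the luminal arrays and 17122 and 93008 on the suprabasal arrays. The outer sums came mostly from Dcn and Postn. The median fibroblast marker had 129 to 419 on the outer, 176 and 406 on the luminal and 782 and 7121 on the suprabasal arrays. Col3a1, collagen III of fibroblasts, was separated in the inner direction with 587 and 688 on the myoepithelial, 712 and 753 on the duct basal, 895 and 2455 on the luminal and 5966 and 26876 on the suprabasal arrays. Of 3 tested adipocyte markers 1 was higher in the inner layer (2 without suprabasal array 1 and 0 without suprabasal array 2, myoepithelial array 2, duct basal array 2 or luminal array 2), and the sum was 502 to 1640 on the outer arrays and 3732 and 23454 on the suprabasal arrays. The suprabasal sums were mostly Fabp4, at 3417 and 22499. On these arrays Adipoq had 144 and 680, and Lpl had 162 and 242, against 171 and 185 on the myoepithelial arrays for Lpl. In suprabasal array 2 against array 1 the median marker was higher by 2.28 for endothelium, 2.35 for fibroblasts and 2.15 for adipocytes (log2).

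These marker levels stood beside the inner differences of Lum, Coch, Col3a1, Notch4, Car3, Penk, Esm1, Cxcl12 and Itm2a and the suprabasal side of Scara5, Fmod, Tgm2 and Fbln5, and their part in those results was not tested. Suprabasal array 1 held these markers as well. Without suprabasal array 2 Lum, Coch, Col3a1, Car3, Penk, Esm1, Cxcl12 and Itm2a had adjusted p from 0.000358 to 0.00231, while in the model without separate layer differences Car3, Penk, Esm1, Cxcl12 and Itm2a were not called (adjusted p from 0.0566 to 0.136).

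Immune markers moved with the outer side of the gland. All 8 tested were called in the gland, with the myoepithelial side higher, 1 was higher in the pooled outer layer and 0 was separated. The pooled count was 6 without suprabasal array 2, 4 without luminal array 2 or with 50 added to the signal, and 0 with 1 added, without array 1 of luminal, duct basal or suprabasal cells or without either myoepithelial array. The summed signal of the 9 markers on the array was 5302 and 7278 on the myoepithelial arrays, 405 and 610 on the duct basal arrays and 284 to 1756 on the inner arrays. Postn, periostin, a fibroblast matrix protein, was separated in the outer direction with 19850 and 28037 on the myoepithelial, 3292 and 1497 on the duct basal, 162 and 343 on the luminal and 447 and 1317 on the suprabasal arrays. Cspg4, known from pericytes, was separated in the outer direction with 488 and 469 on the myoepithelial, 466 and 540 on the duct basal, 30.8 and 65.6 on the luminal and 4.8 and 224 on the suprabasal arrays, while of 4 tested pericyte markers 1 was outer (2 without suprabasal array 2) and 1, Notch3, inner (2 without suprabasal array 1). The part of other cells in the outer matrix genes was not tested.

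Smaller marker lists gave less. Of 3 tested Schwann cell markers 3 were higher in the inner layer, and their sum was 1625 to 8283 on the outer and 6948 to 17070 on the inner arrays, mostly from S100b and Pmp22. Of 3 tested melanocyte markers 2 were inner (1 without suprabasal, luminal, duct basal or myoepithelial array 2), with sums of 210 to 359 on the outer and 394 to 878 on the inner arrays. Merkel cell markers were all below the filter, and the 1 tested red blood cell marker and the 1 tested skeletal muscle marker were not called.

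**Figure D5:**
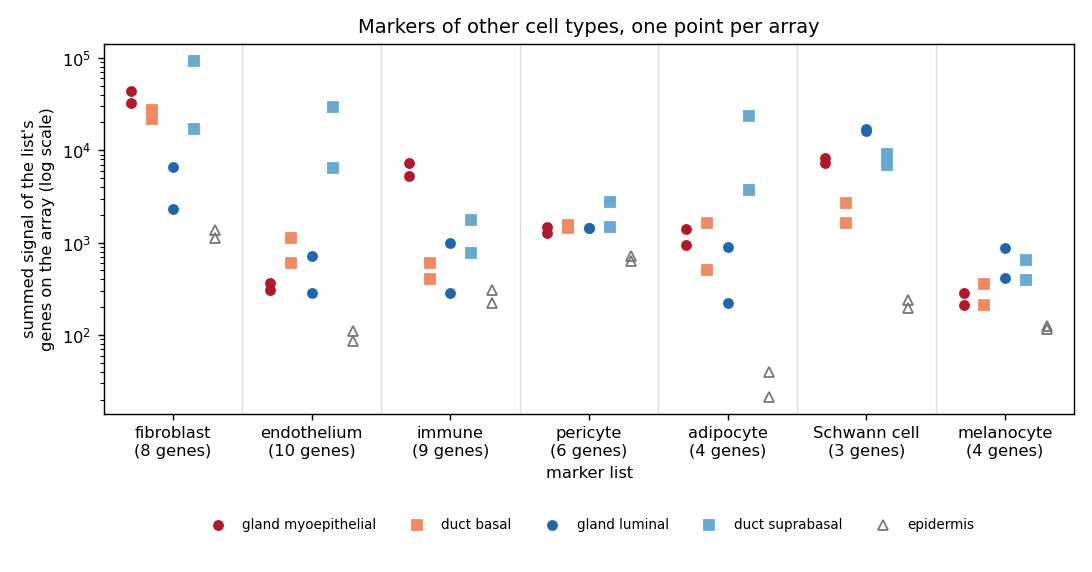
Summed signal of the markers of other cell types on the array (vertical axis, log scale), with 1 point per array and 2 arrays per population, coloured by population. The suprabasal arrays (light blue squares) are highest for endothelium, with 6373 and 29732, and for adipocyte markers, there mostly from Fabp4. The myoepithelial arrays (red circles) are highest for immune markers, with 5302 and 7278.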

How the data were processed

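Signals of 5 sorted populations were measured on 10 arrays, 2 per population. Per the submitters' processing notes, the authors computed signal intensity with MAS5, version not given, and the deposited values are linear, from 0.1 to 72213.2. Detection calls were not used here, so dim genes have no stated bound.

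Of 22690 probe sets, 64 controls were left out, 20380 had 1 gene symbol, 691 several and 1555 were not listed. For each of 12393 genes the probe set brightest on average over the 10 arrays was used. Signals became log2(signal + 12) and were not normalized again. The 9320 genes above the 40th percentile of an array on at least 2 of 10 arrays were tested.

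The model was fitted in limma 3.58.1 (R 4.3.3) with 5 population means on all 10 arrays and a variance trend. Outer against inner is the mean of the gland and the duct difference. The fit was tested on simulated data. Among the 96 named genes, 48 had several probe sets, and in 7 (Ceacam10, Cldn1, Enpp3, Erbb3, Grhl2, Pard3 and Scara5) a second probe set pointed the other way, 0 of them past the threshold.

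Genes were named by rule: layer genes with the 10 largest pooled differences per direction, the 10 largest of the smaller of gland and duct difference, and up to 4 per list and direction. Added were the 5 per direction with the largest pooled difference among overlapping genes whose gland and duct differences differed, 4 per orientation among genes with opposite differences, and Trp63, Col17a1 and Scnn1g. Other list members are named to describe a list. The members and the 33 gene lists, 10 of them markers of other cells, were chosen with earlier results of these data known. Promoter sequences are from RefSeq, build GRCm38.p6. Replicate numbers are shared between populations, but the labels describe no pairing, and they were not used in the main fit. Alternatives covered adding 1 or 50, quantile normalization, dropping the filter or setting it at the 60th percentile, the mean over probe sets, the 8 sweat gland arrays alone, a replicate block, no variance trend, array weights, an additive model, each array left out, and 2 arrays left out together.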

Additional observations from a re-analysis of the deposited data

Results flagged for a closer look

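The layer difference in the gland was set against that in the duct for the 96 named genes, and it differed for 47 of them past the threshold of the limma fit. The values below are gland minus duct differences on the log2 scale, positive where the myoepithelial minus luminal difference is the higher one.

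Contractile and actin genes had large values, Myh11 (8.16), Mylk (7.63), Cnn1 (7.29), Myl9 (6.71), Sln (6.44), Flna (5.43), Fhod3 (5.23), Tpm2 (3.81), Tln1 (2.44) and Smtn (2.38). Among genes of adhesion, basal keratins and basal transcription factors, the outer difference was larger in the gland for Lama3 (5.82), Trp63 (3.47), Col17a1 (3.41), Irx4 (3.25), Krt17 (3.15), Snai2 (3.01), Krt5 (2.45), Dst (2.30) and Tbx1 (1.43). The same held for the signalling, growth factor and matrix genes Ackr3 (5.74), Postn (5.05), Sfrp1 (4.89), Igfbp2 (4.26), Pdgfc (3.93), Fzd2 (3.78), Fst (3.68), Sostdc1 (3.24), Dll1 (3.10), Egfr (2.50), Lgr5 (2.35), Ajuba (2.31) and Pdgfa (2.22).

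Genes high on the suprabasal arrays alone gave positive values too, Itm2a (5.37), Car3 (5.01), Cxcl12 (4.92), Esm1 (4.27) and Penk (3.97), since their difference in the duct is negative. Inner genes with the larger difference in the gland were St14 (-3.17) and Erbb3 (-2.33). Genes with opposite directions in gland and duct were Fmod (10.35), Scara5 (10.28), Tgm2 (9.39) and Fbln5 (6.81) on one side and Racgap1 (-4.95), Otud7a (-3.47), Shmt1 (-3.37) and Depdc7 (-2.92) on the other. Many of these genes were chosen because their gland and duct differences differed, and for those the values are a description.

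In 5 of 192 groups of 4 arrays (96 genes, outer and inner layer), 1 array stood apart from the other 3. Chance would flag about 1 in 20 groups of 4 like arrays. Here each group holds 2 populations and the genes were chosen on these arrays, so that rate need not hold and nothing is read from the number of flags. On the log2(signal + 12) scale, Epcam was at 9.08 on myoepithelial array 2, against 11.30 to 11.73 on the other outer arrays. Ceacam1 was at 12.58 on suprabasal array 2 (other inner arrays 13.64 to 13.75), and Sidt1 at 8.52 on the same array (9.99 to 10.20). Foxa1 was at 11.002 on suprabasal array 1 (9.63 to 9.72), and Wfdc2 at 12.58 on luminal array 1 (13.36 to 13.45).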

How the results depend on the processing

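The count of genes called between outer and inner layer was 2970, and 2590 to 3374 under the 10 alternatives other than the additive model that kept all 8 sweat gland arrays. No alternative called a gene in the direction opposite to its call among the 2970. The additive model, fitted to the 8 sweat gland arrays, called 1306 genes, where the model of population means on these arrays called 2590. The layer by compartment difference enters the residual of the additive model, and 14 named genes lost their call in it. Leaving out 1 array gave 2032 to 3389 genes, of which 2013 to 2740 were among the 2970. The separated genes numbered 2990 without myoepithelial array 1 and suprabasal array 2, and 1498 to 2487 with 1 array left out. Genes called in the same direction in gland and duct were 355 in the fit of the 8 sweat gland arrays, 267 with array weights, 930 without both arrays and 186 to 888 with 1 array left out, for which the cause was not tested. The gland against duct difference was called for 636 to 2036 genes with 1 array left out. Same-numbered arrays of the 6 pairs of sweat gland populations had correlations of their deviations from 0.121 to 0.357, a hint from the data and not from the design, and with the replicate block 3374 genes were called in the pooled contrast, 799 in both compartments and 1958 for the gland against duct difference. The pooled differences of 7 of the 8 genes with opposite directions in gland and duct changed sign under at least 1 of 20 alternatives. Signal over background could not be judged without detection calls.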
